A study of Mus musculus with 8 samples.

Results

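The regions described here are stretches of histone H3 lysine 4 methylation that lie inside the longest genes of the mouse. They were found in every ChIP library of the series. Peaks on chromosomes 1 to 19 were merged within each of the 4 peak lists, the 4 sets were intersected, and an interval was kept if it was at least 200 bp and under 10 kb long and lay wholly inside a protein-coding gene span of 300 kb or more. This gave 8155 regions out of 56725 shared regions of that length on these chromosomes. Of the others, 23649 lay inside shorter coding genes, 20927 touched no coding gene and 3994 crossed the end of one. The regions were chosen by the presence of a peak in all 4 libraries and by gene length, so the number and place of the regions are a description and carry no test.

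The chromatin came from lysates of whole mouse cortex taken at E15.5 (age in embryonic days) and was profiled by native ChIP-seq, on chromatin cut with micrococcal nuclease, with an antibody to methylated H3K4 (H3K4me), whose catalogue entry is for the monomethylated form. The WT group was Prdm16 flox/flox without Cre (2 libraries), so the controls also carry the floxed alleles. The cKO group was Emx1Ires-Cre; Prdm16flox/flox (2 libraries). Emx1 drives Cre in progenitors of the dorsal telencephalon and their descendants, so interneurons, microglia and vessels in the lysate are not deleted by this driver, and the labels do not say how many embryos or litters stand behind a library.

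Monomethylation of H3K4 is laid down by the MLL3 and MLL4 enzymes at enhancers, and it also flanks active promoters, where the trimethylated form takes the centre. Very long genes are mostly intron, and in the nervous system many of them encode adhesion molecules, guidance receptors, channels and neuronal regulators. Their introns can hold enhancers of the gene itself or of a neighbour, and a peak inside a gene does not say which gene it acts on.

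Some start sites of long genes lie inside such regions, and their sequences can be shown from RefSeq (GRCm38.p6, the assembly behind mm10). The RefSeq table used gives 605 start sites for 405 of the 533 long genes. Of the windows of 250 bases before a start site, 96, in 75 genes, lay wholly inside a shared region. A region lies wholly inside a gene span, so these start sites lie within a span and are not its outermost start. The first 3 sequences below are the windows inside a shared region in the genes with the most regions. The last 3 belong to the longest genes with a start site that had no peak base within 1 kb in any library. These last 3 were not limited to start sites within a span. All are written 5′ to 3′ on the strand of the gene, and capitals mark CG pairs, the letters C and G in that order, which read the same on both strands.
Nav2 (chr7:49245939-49246188, plus strand, inside a region of 6759 bp): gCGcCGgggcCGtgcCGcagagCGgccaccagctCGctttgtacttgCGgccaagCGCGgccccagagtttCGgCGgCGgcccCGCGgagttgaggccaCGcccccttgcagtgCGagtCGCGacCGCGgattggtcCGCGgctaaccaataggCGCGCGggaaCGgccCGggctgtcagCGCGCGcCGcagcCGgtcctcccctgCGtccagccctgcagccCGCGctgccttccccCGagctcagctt
Frmd4a (chr2:4559504-4559753, plus strand, inside a region of 9587 bp): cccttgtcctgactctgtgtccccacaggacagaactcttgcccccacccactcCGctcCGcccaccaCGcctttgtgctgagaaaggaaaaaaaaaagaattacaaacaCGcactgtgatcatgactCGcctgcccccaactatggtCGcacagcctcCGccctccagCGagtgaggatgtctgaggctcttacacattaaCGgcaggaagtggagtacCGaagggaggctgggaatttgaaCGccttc
Asic2 (chr11:81152904-81153153, minus strand, inside a region of 2916 bp): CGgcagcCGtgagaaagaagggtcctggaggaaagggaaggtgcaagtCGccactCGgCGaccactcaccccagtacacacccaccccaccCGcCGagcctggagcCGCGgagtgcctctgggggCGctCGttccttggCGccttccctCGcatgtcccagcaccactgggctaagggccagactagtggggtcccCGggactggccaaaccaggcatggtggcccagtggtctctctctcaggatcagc
Dlg2 (chr7:92062144-92062393, plus strand, no peak nearby): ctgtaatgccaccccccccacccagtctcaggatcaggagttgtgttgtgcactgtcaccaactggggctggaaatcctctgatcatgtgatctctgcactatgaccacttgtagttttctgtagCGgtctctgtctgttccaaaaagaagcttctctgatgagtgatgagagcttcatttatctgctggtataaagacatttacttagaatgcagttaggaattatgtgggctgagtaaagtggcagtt
Nrxn3 (chr12:88794254-88794503, plus strand, no peak nearby): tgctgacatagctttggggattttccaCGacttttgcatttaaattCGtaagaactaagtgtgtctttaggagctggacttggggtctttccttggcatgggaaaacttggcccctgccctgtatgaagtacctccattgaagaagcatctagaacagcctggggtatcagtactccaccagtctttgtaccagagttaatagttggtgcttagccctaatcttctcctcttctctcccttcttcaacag
Ctnna3 (chr10:63429848-63430097, plus strand, no peak nearby): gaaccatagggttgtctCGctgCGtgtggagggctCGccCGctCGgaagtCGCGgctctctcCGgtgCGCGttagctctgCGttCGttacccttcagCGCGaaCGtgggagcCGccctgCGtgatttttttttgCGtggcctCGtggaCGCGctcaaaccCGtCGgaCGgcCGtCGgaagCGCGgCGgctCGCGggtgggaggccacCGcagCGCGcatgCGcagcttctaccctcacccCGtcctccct

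The window of Nav2 holds 36 CG pairs, that of Frmd4a 11 and that of Asic2 14, against 1 in Dlg2 and 2 in Nrxn3. The window of Ctnna3 goes the other way, with 36 CG pairs and no peak. Over all start sites of long genes, the 167 windows with every base under peaks in all 4 libraries had a median of 9 CG pairs and a GC content of 56.8%. The 110 windows with no peak base within 1 kb had a median of 3.5 CG pairs and a GC content of 45.8%, and the 328 windows between these classes had 14.5 and 61%. At least 1 CG pair was present in 97.7% of the windows of long genes and in 93.6% of those of shorter coding genes. Windows of 1 gene are not independent, and these values are descriptions.

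The regions also hold a few microRNA genes. RefSeq places 52 microRNA hairpins inside the long genes, and 4 of them lay wholly inside a shared region. Their mature sequences are shown because these hairpins lie wholly inside regions, with the seed (bases 2 to 8) in capitals.
mmu-miR-6394 (in Tenm4): uCCCUGAGuggggccaggucu
mmu-miR-5110 (in Bcas3): gGAGGAGGuagagggugguggaauu
mmu-miR-153-5p (in Ptprn2): gUCAUUUUugugacguugcagcu
mmu-miR-153-3p (in Ptprn2): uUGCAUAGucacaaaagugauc
mmu-miR-1904 (in Pde4d): gUUCUGCUccucuggagggagg

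No seed is shared between the hairpins. miR-153 is a neuronal microRNA whose hairpin sits in Ptprn2, the gene of a secretory granule phosphatase-like protein. Its region, 748 bp long, had fold enrichments of 4.74 and 3.48 in WT replicates 1 and 2 and of 3.84 and 4.82 in cKO replicates 1 and 2, as the authors' peak caller gave them. The region around miR-1904 in Pde4d, 1636 bp long, had 4.91, 4.72, 5.06 and 4.70 in the same order. The groups overlapped at both.

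The regions had a median length of 1037 bp (quartiles 573.5 and 1895 bp) and covered 12.2 Mb together. Just outside the lower length limit lay intervals in Pard3 (198 bp), Gpc6 (199 bp) and Pde4b (199 bp), and just inside it intervals in Pard3b (201 bp), Fbxl17 (201 bp) and Nrxn3 (202 bp). Near the upper limit, members lay in Cdh4 (9748 bp) and Msi2 (9955 bp), and excluded intervals in Snd1 (10243 bp) and Nfia (10256 bp). In all 184 shorter and 47 longer intervals inside long genes were left out. At the limit on gene length, Atp2b2 (298.8 kb, 14 regions) and Akap13 (299.1 kb, 3 regions) fell just outside, and Zfp423 (300.2 kb, 31 regions) and Kcnq3 (300.3 kb, 7 regions) just inside. A further 140 shared regions crossed the end of a long gene. Of the members, 39 lay in 2 long genes at once and 80 also lay inside a shorter coding gene.

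The 4 lists held between 65740 and 81447 peaks on chromosomes 1 to 19, and their read depth is unknown. Peaks covered part of the locus of all 8 cortical markers (such as Sox2, Pax6, Eomes and Tbr1) in every library, with a median of 63.4% to 69.8% of the locus. The medians over the marker lists of microglia, endothelium, erythroid cells, meninges, and liver and muscle ranged from 0.445% to 8.40%. Part of the locus was also covered in all 4 libraries at 5 of 5 meningeal, 4 of 5 microglial and 4 of 5 endothelial markers. This held for 3 of 5 liver and muscle markers and 2 of 4 erythroid markers too. Of the erythroid markers, 2 of 4 had no peak base in any library.

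The 533 long genes occupied 301.6 Mb, which is 12.4% of the sequence between the first and the last coding genes of the chromosomes. Within them peaks covered 19.3 Mb (WT replicate 1), 17.2 Mb (WT replicate 2), 22.3 Mb (cKO replicate 1) and 24.3 Mb (cKO replicate 2). That is 6.42%, 5.71%, 7.39% and 8.06% of their span. In the span of shorter coding genes the corresponding values were 9.18%, 8.07%, 10.4% and 11.7%, and outside coding genes 3.26%, 2.81%, 3.71% and 4.16%. Pooled over all lengths, long genes thus stood between shorter genes and intergenic sequence in each of the 4 libraries.

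Within the set, regions thinned out as genes became longer, and genes of 1 length class differed widely. Pooled density was 33.1 regions per Mb in genes of 300 to 500 kb, 25.9 in genes of 500 to 1000 kb and 18.6 in the 55 genes of 1 Mb or more. Genes of 200 to 300 kb had 38.0, and below that length the order did not hold. Density was 35.3 at 100 to 200 kb, 30.6 at 50 to 100 kb, 30.4 at 20 to 50 kb and 43.8 under 20 kb. Over the classes of long genes the share of span under peaks also fell with length in every library. It went, for example, from 8.40% to 5.91% and 3.89% in WT replicate 1 and from 10.5% to 7.47% and 4.86% in cKO replicate 2. Over single genes the number of regions had a median of 11 (range 0 to 124) and the density a median of 21.0 per Mb (quartiles 8.90 and 45.3, highest 126). The rank correlation of length and density over the 533 genes was −0.16, with all genes read from the same 4 libraries. Of the genes of 1 Mb or more, 22 had under 10 regions per Mb and 7 had over 40. The regions were concentrated: 107 genes held 50% of them, 33 genes had 40 or more, 155 had 5 or fewer and 25 had none.

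**Figure D1:**
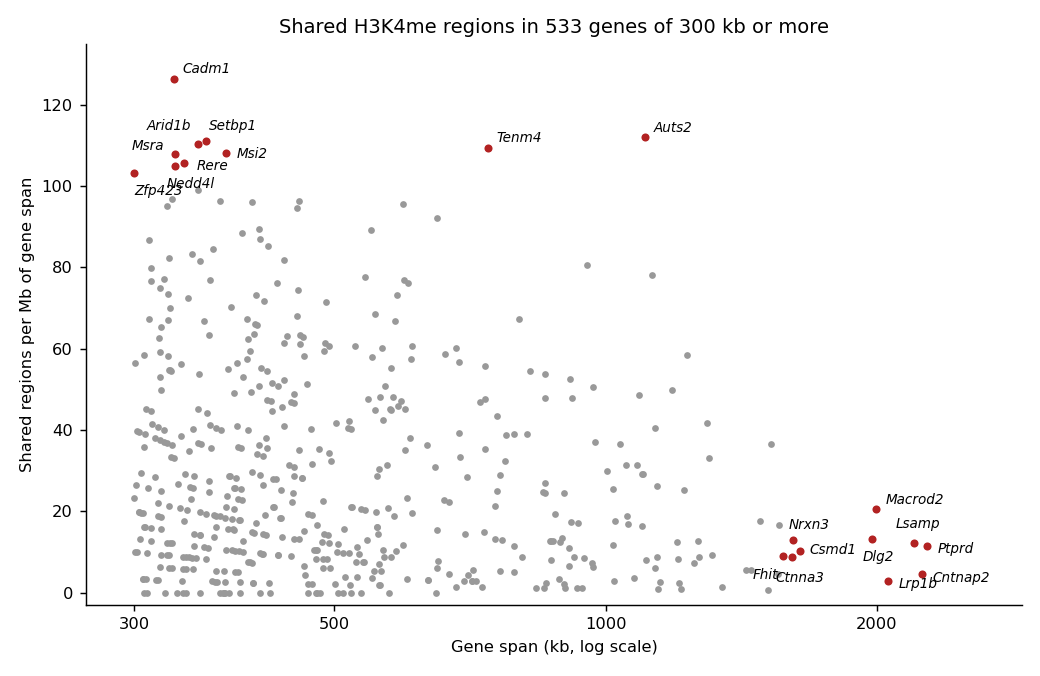
Each point is 1 of the 533 genes of 300 kb or more, with its span in kb on a log axis and its shared regions per Mb of span on the vertical axis. Named in red are the 10 densest genes, from Zfp423 (103 per Mb) to Cadm1 (126 per Mb), and the 10 longest genes, which lie between 2.92 (Lrp1b) and 20.5 per Mb (Macrod2).

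The genes with the most regions were of several kinds. Auts2, a nuclear regulator of transcription in neurons (chromosome 5, 131437333 to 132543220), had 124 regions, and peaks covered 38.6% and 35.9% of it in WT replicates 1 and 2 and 43.2% and 46.7% in cKO replicates 1 and 2. Dab1, the adaptor that carries the reelin signal in migrating neurons, had 88 regions, with 16.8%, 14.1%, 19.1% and 20.3% covered in the same order. Tenm4, a teneurin adhesion molecule, had 81 regions, with 41.8%, 38.7%, 46.7% and 51.9% covered. In all 3 genes both cKO libraries were above both WT libraries, as they were for the summed span of all long genes. Sox5, a transcription factor of deep layer neurons, had 77 regions, followed by the teneurin gene Tenm2 (72), the microtubule-associated navigator gene Nav2 (60), the atypical cadherin gene Cdh13 (59) and the scaffold gene Frmd4a (57). The splicing regulator Rbfox1 had 56, and Camta1, a calmodulin-binding transcription activator, and Tenm3 had 54 each.

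Per length, the leading genes were shorter. Cadm1, an immunoglobulin-like synaptic adhesion molecule (332.1 kb), had the highest density with 126 regions per Mb and peaks covered 29.8% to 41.4% of it over the 4 libraries. Auts2 followed with 112, Setbp1 with 111, Arid1b, a subunit of the BAF chromatin remodelling complex, with 110, and Tenm4 with 109. Msi2, an RNA-binding protein of neural progenitors, and Msra, a methionine sulfoxide reductase, had 108 each, the nuclear receptor corepressor Rere 106, the ubiquitin ligase Nedd4l 105 and the zinc finger gene Zfp423 103. In these 10 genes the longest stretch without a region ran from 17.5 kb in Msra to 33.7 kb in Tenm4.

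**Figure D2:**
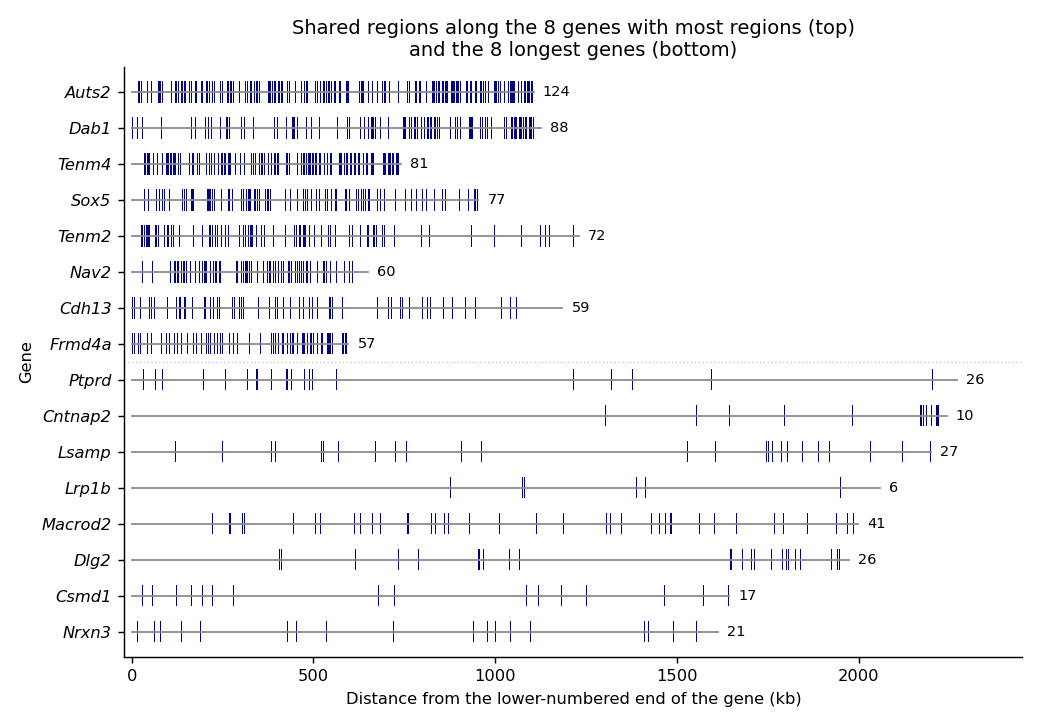
Each line is a gene drawn to length in kb from its lower-numbered end, and each bar is a shared region (bars are drawn at least 2.5 kb wide to be visible), with the number of regions at the right. The 8 genes with the most regions carry them along most of their span, from 124 in Auts2 to 57 in Frmd4a, while the 8 longest genes carry 6 to 41.

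The longest genes looked different. Ptprd, a receptor tyrosine phosphatase that organises synapses, is the longest at 2271 kb and had 26 regions, with 1.96% and 2.08% of its span covered in WT replicates 1 and 2 and 2.79% and 2.42% in cKO replicates 1 and 2. Cntnap2, a neurexin-family gene, had 10 regions in 2241 kb, and 1301 kb of it ran without a region. Lrp1b, a member of the LDL receptor family, had 6 regions in 2058 kb and 0.895%, 0.649%, 0.853% and 0.734% of its span covered. For Lrp1b the WT and cKO libraries overlapped. Lsamp, a GPI-anchored adhesion molecule, had 27 regions, the postsynaptic scaffold gene Dlg2 26, the presynaptic neurexin gene Nrxn3 21 and Csmd1, a complement control protein, 17. Fhit and the catenin gene Ctnna3 had 14 each. Macrod2, an ADP-ribose-binding protein, was the densest of the 10 longest with 41 regions, or 20.5 per Mb, close to the median of all long genes. These counts moved with how much was called. With lists cut to equal covered length Lrp1b had 2 regions, Csmd1 6, Ctnna3 6, Cntnap2 6 and Lsamp 13, and of the genes with the most regions Dab1 had 54 and Nav2 35. Cntnap2 had 16 without WT replicate 2.

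Gene lists by role, chosen with earlier results of these data known, differed in density. They are given by count and median, against a median of 21.0 regions per Mb over all long genes, without a test. Transcription factors and RNA-binding regulators had the highest median, 51.6 per Mb over 40 genes, and 31 of the 40 were above the median of all. Sox5 (80.7 per Mb) and Rbfox1 (36.7) are examples beside Auts2, while Zfp804b, a zinc finger gene, had none. Signalling enzymes had 36.5 per Mb over 37 genes (27 above the median of all), led in number by the polarity gene Pard3 with 49 regions, the exchange factor Kalrn with 46 and the cAMP phosphodiesterase Pde4d with 43. The exchange factor Vav3 had 3.

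Axon guidance and migration genes had a median of 29.6 per Mb over 22 genes, with 14 above the median of all. After Dab1 and Nav2 came Slit3, a secreted guidance ligand, with 43 regions and 12.9%, 10.6%, 16.3% and 20.4% of its span covered in WT replicates 1 and 2 and cKO replicates 1 and 2, and Plxdc2 had the fewest at 3. Genes of synaptic vesicles and scaffolds had 24.4 per Mb over 19 genes, with Magi1 (35 regions), Ank2 (32) and Anks1b (32) on one side and the active zone gene Rims1 (1 region) on the other. In this list 10 of 19 genes were above the median of all long genes.

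The lists of the neuronal membrane lay below the median of all long genes. Adhesion molecules and synapse organisers had 12.8 per Mb over 53 genes, although the list holds both Cadm1 and 3 teneurin genes, and 20 of the 53 were above the median. Cntnap5c had no region. Glutamate and GABA receptors had 12.6 per Mb over 17 genes, with 5 above the median. Grid1 and Grik4 had 22 regions each and Gabbr2, a subunit of the metabotropic GABA receptor, 18, while the AMPA receptor gene Gria4 had none and at most 1.403% of its span covered in a library. Ion channels had the lowest median, 10.2 per Mb over 24 genes. The L-type calcium channel gene Cacna1c had 37 regions, its auxiliary subunit gene Cacna2d3 32 and the potassium channel partner Kcnip1 28, against 1 in the potassium channel gene Kcnt2. The adhesion and channel lists held longer genes than the regulators, with median spans of 928.6 and 492.4 kb against 452.2 kb, and the part of length in these densities was not tested.

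Genes of common fragile sites, which break under replication stress, had 13.2 regions per Mb over 17 genes with a median span of 1223 kb. Wwox, a tumour suppressor gene, had 48 regions and Naaladl2 had 2. Genes best known in retina, ear, muscle or other tissues had 15.48 per Mb over 28 genes, with 10 above the median of all. Among them Gpc6 had 33 regions and Slc9a9 17, and the muscle gene Trdn had none. The list also holds Astn1, a gene of neuronal migration (11 regions), and Erbb4, a neuregulin receptor gene that the adhesion list holds too (4 regions), so its name does not describe every member. The 284 long genes in no list had 20.1 per Mb.

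**Figure D3:**
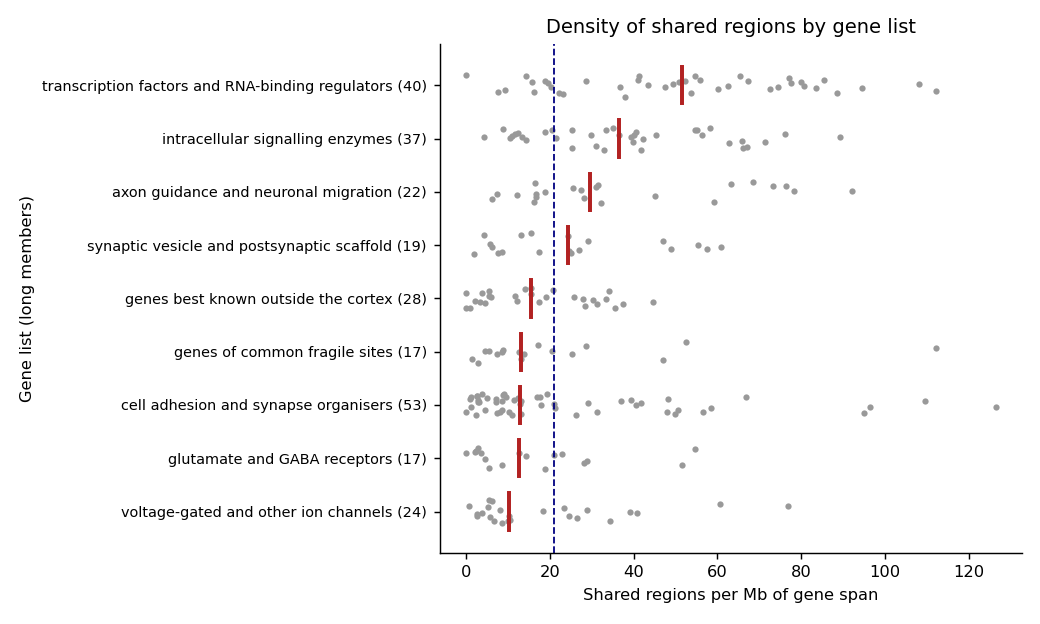
Each grey point is a long gene placed by its shared regions per Mb, in the row of its list (number of long members in brackets), with a red bar at the list median and a dashed line at the median of all long genes, 21.0. Regulators of transcription and RNA have the highest median (51.6) and ion channels the lowest (10.2), and every list spans a wide range.

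Among the 25 genes without a region, 7 had no peak base in any library. The number without a region was 67 with lists cut to equal covered length, 34 to 42 with stricter peaks, equal numbers of peaks or regions of at least 500 bp, and 23 to 25 with 1 library left out. The longest of the 25 was Cntnap5c (648.9 kb), followed by Zfp804b (575.3 kb) and Iqcm (535.8 kb). Skint5, Skint6 and Zfp993 had no peak base in any library. The Skint family is known from skin and thymus. How reads were filtered is not given, and why these genes had no peak was not tested. Cpq, Stpg2, Dok6 and Snrpn complete the 10 longest of this kind. Dok6 had 2.70 and 1.75 kb covered in the WT libraries against 1.56 and 2.08 kb in the cKO libraries, without a shared interval that the rule keeps. A further 30 genes had 1 region each. The longest was Dpp10, an auxiliary subunit of potassium channels (1514 kb), whose only region, 1271 bp long, lay 0.156 kb from a start site. Its fold enrichment was 4.90 and 2.99 in WT replicates 1 and 2 and 3.47 and 3.42 in cKO replicates 1 and 2, so the groups overlapped. The only region of Galnt13 was 1.29 kb from a start site, while those of Cdh18, Marchf1 and Sugct lay 416, 348 and 398 kb away from one.

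At the other end, some genes carried the mark in blocks. Peaks covered on average 71.0% of Gse1 and 59.4% ± 6.13 of Msi2 (SD, n = 4 libraries). Intervals of 10 kb or more, which the length limit leaves out of the 8155, were found 6 times in Nfia, a nuclear factor I gene of glial and neuronal progenitors, and 4 times in Gse1. The longest of those in Gse1 was 38829 bp. Counts of regions therefore understate the mark in such genes.

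Fold enrichment, which the rule did not use, was compared as the percentile of a region's peak among all peaks of its list. The median region in long genes stood at percentile 59.4 and 56.5 in WT replicates 1 and 2 and at 63.5 and 66.2 in cKO replicates 1 and 2. Shared regions in shorter genes stood at 62.1, 56.8, 66.1 and 66.8 in the same order. The difference was −1.56 ± 1.27 percentile points (SD, n = 4 libraries), negative in 4 of 4 libraries, with a two-sided exact sign-flip permutation p of 0.125, the smallest that 4 pairs allow. Against regions outside coding genes the difference was 0.389 ± 0.660, positive in 3 of 4 libraries, with an exact permutation p of 0.375. The percentile of a single region ranged over a median of 33.7 points between the 4 libraries.

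A small group of regions was strong everywhere. In all 4 libraries 338 regions (4.14%) stood above the 90th percentile, and 933 (11.4%) stood below the 50th. The shares were similar for other shared regions. Above the 90th stood 4.34% of those in shorter genes and 3.67% of those outside coding genes. Below the 50th stood 10.8% and 11.4% in the same order. The 338 lay in 141 genes, with 18 of the 124 regions of Auts2, 17 of 35 in Gse1, 11 of 81 in Tenm4 and 10 of 29 in Bach2. Arid1b had 8 of 39 and Msi2 8 of 41. The region with the highest median percentile lay in Rbfox3, the gene of the neuronal nuclear protein NeuN (chromosome 11, 118791246 to 118796090). It had fold enrichments of 10.6 and 6.09 in WT replicates 1 and 2 and of 10.7 and 9.59 in cKO replicates 1 and 2. Next came a region of 4029 bp in Dscaml1, a Down syndrome cell adhesion homologue, with 11.6, 7.41, 8.77 and 11.0, and 1 of 6671 bp in Gse1 with 9.91, 7.68, 8.13 and 8.85. WT replicate 2 was the lowest of the libraries at all 3, and the genotypes overlapped at all 3. A second region of Dscaml1 (4513 bp) and regions of Cacna1c (1815 bp) and Arid1b (4822 bp) complete the 6 strongest. These are described by their values, and the distances to a start site were 32.6 kb in Rbfox3, 49.1 kb in Gse1, 34.1 kb in Cacna1c and 291 kb in Arid1b.

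Among the longest members, rank varied. A region of 9955 bp in Msi2 (chromosome 11, 88534161 to 88544115) had a median percentile of 79.2, and those of Cdh4 (9748 bp) and Nedd4l (9644 bp) had 89.8 and 73.1. Another, in Frmd4a (9587 bp), contains the start site shown above and stood at 87.95. A second region of Msi2 (9464 bp) reached 99.1.

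Most of the regions in these genes lay far from the listed start sites. Over the 405 genes with listed start sites, the median region was 173 kb from the nearest one, 79.4% were more than 50 kb away and 5.24% lay within 5 kb. The rule leaves out 140 shared regions across the end of a long gene and 47 intervals of 10 kb or more. Mark at the outermost starts can therefore be undercounted here. Regions were spread along the gene: the first 10% of the span held 10.8% of them, the second 8.83% and the last 11.1%. Between neighbouring regions of a gene the median gap was 11.6 kb, and 13.6% of gaps exceeded 50 kb. The smallest gap was 1274 bp. Of the 387 such genes with any region, 242 had a region within 5 kb of a start site. This held for 105 of the 131 genes with 20 or more regions, and for 45 of the 97 genes with 1 to 5. More regions give more chances of a region near a start site, so no conclusion is drawn from these shares.

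Peaks nonetheless gathered at the starts themselves. At the start site, 49.6% and 41.2% of the 605 sites were under a peak in WT replicates 1 and 2 and 52.6% and 57.9% in cKO replicates 1 and 2. The share was highest 250 or 500 bp downstream and had dropped to 9.75%, 8.93%, 12.6% and 13.2% at 5 kb. At 20 kb it was 7.93%, 7.27%, 8.26% and 9.92%. Coding genes of 20 to 300 kb had lower values at the start site itself (35.4%, 29.9%, 42.9% and 47.9% of 9356 sites) and their maximum at 750 or 1000 bp. Of the long-gene windows, 27.6% had all 250 bases under peaks in all 4 libraries and 18.2% had no peak base within 1 kb, against 18.9% and 34.6% in genes under 300 kb. In each of the 4 libraries the long genes were higher at the start site. This difference between gene classes was not tested.

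**Figure D4:**
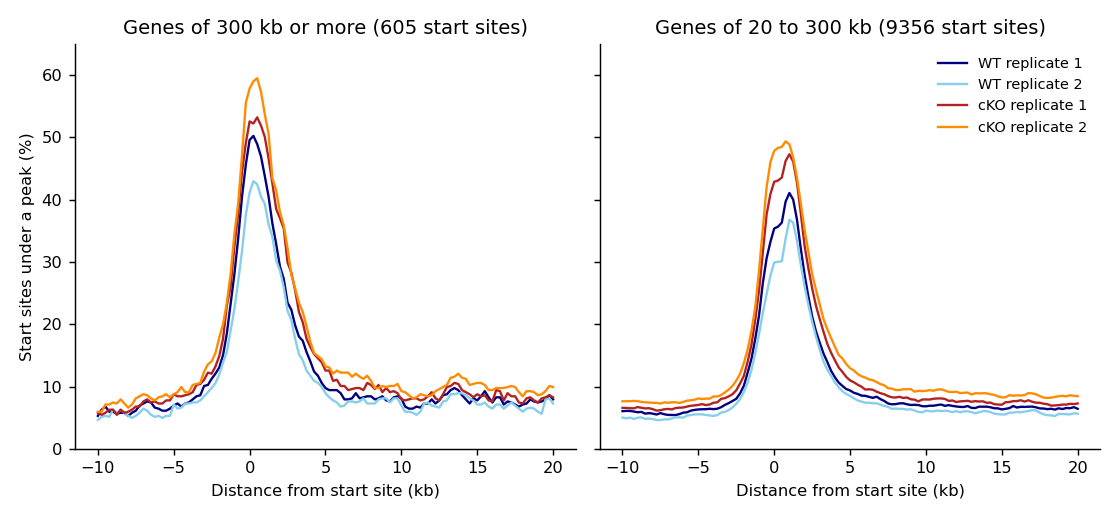
The share of listed start sites under a peak (%) is drawn against distance from the start site in kb, downstream to the right, with 1 line per library, for long genes (left) and genes of 20 to 300 kb (right). At the start site the long genes reach 41.2% to 57.9% and the shorter genes 29.9% to 47.9%, and cKO replicate 2 is highest in both.

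Regions close to a start site had a lower median rank than regions deep in the gene, mainly those within 2 kb. The 330 regions within 5 kb of a listed start site had a median percentile of fold enrichment of 50.01 and 47.5 in WT replicates 1 and 2 and of 55.6 and 62.4 in cKO replicates 1 and 2. The 4983 regions at 50 kb or more stood at 59.8, 56.6, 63.7 and 65.9. The difference was −7.60 ± 2.84 points (SD, n = 4 libraries), negative in 4 of 4 libraries, with a two-sided exact sign-flip permutation p of 0.125, the smallest 4 pairs allow. The comparison was chosen after the data were seen. The rule leaves out intervals across a gene end, where the outermost start can lie, and intervals of 10 kb or more. The regions near a start site are therefore only part of the mark there. The 229 regions under 2 kb from a start site stood at 47.8, 45.9, 53.5 and 58.2, and the 101 regions at 2 to 5 kb at 56.6, 51.98, 60.97 and 67.8. Beyond 200 kb the values were 59.7, 56.9, 63.4 and 66.8, so in cKO replicate 2 the regions at 2 to 5 kb stood above them. Length went the other way in part: regions under 2 kb from a start site had a median of 1162 bp and those at 2 to 5 kb 1788 bp, against 1010 bp beyond 200 kb.

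The genotype comparison asks whether the mark in these genes differs when Prdm16, a zinc finger regulator of cortical progenitors, is deleted. Peaks inside long genes covered 18.3 Mb ± 1.499 in WT (SD, n = 2) against 23.3 Mb ± 1.42 in cKO (SD, n = 2). This is 1.27 times as much, with each cKO list above either WT list (two-sided exact permutation p = 0.333, the smallest that 2 against 2 allow). As a share of all covered bases the long genes held 15.1% ± 0.188 in WT and 15.0% ± 0.292 in cKO. That difference was −0.145 percentage points, within the spread of the libraries (exact permutation p = 0.667), and turned to 0.0621 without cKO replicate 2. Shorter genes and sequence outside genes also had more covered bases in both cKO libraries. The part of depth or of the efficiency of the precipitation was not tested. In a lysate of mixed cells, fewer cells with the mark and less mark per cell cannot be told apart. Since the labels name no separate animals, p-values measure only the spread between these libraries.

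Single genes were compared by the bases under peaks in the gene plus 10 kb on either side, as log2(bases + 500), after centring each library on its median locus. The fit also took in loci on chromosomes X and Y. Without centring the median over all 14941 loci was 0.35 higher in cKO. A value near 0 therefore means a change like that of the median locus. Of the 533 long genes, 518 passed the filter of 1000 covered bases on average and 15 did not. By limma, none of the 518 passed an adjusted p under 0.05, with 0 calls up and 0 down in cKO (lowest adjusted p = 0.407, background 0% of all loci in each direction). At an unadjusted p under 0.05, 37 were higher and 37 lower, which is 7.14% each, against 5.56% and 4.44% of all loci. Both cKO libraries lay above both WT libraries for 112 long genes (21.6%, against 17.3% of all loci) and below both for 124 (23.9%, against 27.2%). The median log2 difference was −0.014 over long genes and −0.038 over all loci. The genes of the same loci share peaks with neighbours, so these counts are not of independent genes.

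The loci with the smallest p in either direction, none past the threshold (limma adjusted p = 0.407 for each), were of different kinds. Among those higher in cKO, Hs3st4, a heparan sulfate sulfotransferase, carried peaks over 17.3 kb (WT replicate 1), 15.4 kb (WT replicate 2), 32.01 kb (cKO replicate 1) and 35.7 kb (cKO replicate 2), a log2 difference of 0.64 ± 0.10 (SE). Syt1, the calcium sensor of synaptic vesicles, had 15.4 and 13.3 kb against 29.3 and 30.4 kb (0.65 ± 0.11). Chrm3, a muscarinic acetylcholine receptor, had 8.57 and 5.16 kb against 15.99 and 21.0 kb (1.01 ± 0.19). At all 3 the cKO libraries lay above the WT libraries, as the choice of the named loci required. Exoc6b, a subunit of the exocyst, stood at 1.13 ± 0.22, and Ryr3, a calcium release channel, at 0.63 ± 0.14. With lists cut to equal covered length Chrm3 turned to −0.57 ± 0.56 and Syt1 stood at 0.030 ± 0.15, while Hs3st4 ranged from 0.36 to 1.03 over all alternatives.

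Among those lower, Patj, a scaffold of the Crumbs polarity complex, carried peaks over 33.8 kb (WT replicate 1), 28.8 kb (WT replicate 2), 24.9 kb (cKO replicate 1) and 22.6 kb (cKO replicate 2), a log2 difference of −0.77 ± 0.13 (SE). It was the only one of the 5 with fewer covered bases in both cKO libraries. Unc5d, a netrin receptor gene of upper layer neurons, had 43.0 and 40.5 kb covered in the WT libraries against 37.2 and 44.4 kb in the cKO libraries (−0.42 ± 0.093). Gse1 (−0.26 ± 0.059), Msi2 (−0.22 ± 0.052) and Thsd4 (−0.34 ± 0.079) were also below the WT libraries after centring. Their covered bases overlapped between the genotypes or were higher in cKO: Gse1 had 256.2 and 237.2 kb covered in the WT libraries against 261.4 and 276.4 kb in the cKO libraries. For Msi2 the values were 230.6 and 204.7 kb against 225.4 and 261.7 kb, and for Thsd4 62.1 and 57.2 kb against 57.5 and 65.9 kb. Without centring Gse1 turned to 0.12, Msi2 to 0.16 and Thsd4 to 0.046, all below the 0.35 of the median locus, and Unc5d stood at −0.039.

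Leaving out 1 WT library changed the calls. Without WT replicate 1, 6 long genes were higher at a limma adjusted p under 0.05 (Ryr3, Ror1, Dpp6, Sbf2, Chrm3 and Kcnma1), out of 98 calls over all loci. Without WT replicate 2 it was Exoc6b alone among the long genes (adjusted p = 0.0356), out of 8 calls over all loci, and without either cKO replicate none. By role, 0 members of any list passed in either direction with all libraries. Median log2 differences ran from −0.11 over 40 transcription and RNA regulators to 0.090 over 17 glutamate and GABA receptors. At an unadjusted p under 0.05 the 9 lists had 0 to 4 members higher and 0 to 7 lower, against 5.56% and 4.44% of all loci. The 40 regulators had 1 higher and 7 lower, the 24 ion channels 4 and 0, the 37 signalling enzymes 2 and 2, and the 28 genes best known in other tissues 0 and 0. With equal covered length the medians of all 9 lists were negative, between −0.29 and −0.045.

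**Figure D5:**
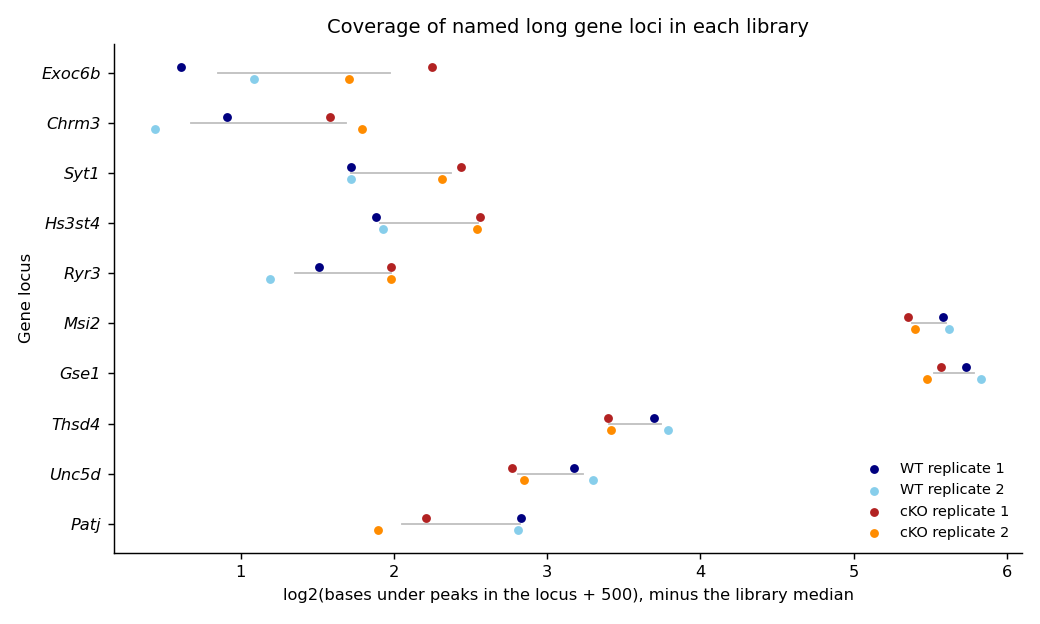
For each of the 10 named loci the points give log2(bases under peaks + 500) minus the library median in the 4 libraries, coloured by library, and the grey line joins the genotype means. Differences run from −0.77 in Patj to 1.13 in Exoc6b, the genotypes do not overlap by the way the loci were chosen, and none passed the limma threshold.

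Prdm16 itself is a long gene (321.2 kb, chromosome 4, 154316122 to 154637360) with 21 regions and 3 intervals of 10 kb or more. Peaks covered 46.1% and 43.1% of it in WT replicates 1 and 2 and 51.4% and 54.6% in cKO replicates 1 and 2. After centring its locus stood at −0.14 ± 0.066 (SE; limma adjusted p = 0.518), and at 0.25 without centring. Broad coverage of the whole gene does not check the deletion, whose exons the labels do not name.

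The surroundings of single regions were compared by the bases under peaks within 5 kb on either side, the region itself left out, since the rule fixes the region and not its flanks. Of the 8155 regions, 5904 had at least 500 covered flank bases on average and 2251 did not. By limma over 40262 flanks, none of the 5904 passed, with 0 calls up and 0 down in cKO (lowest adjusted p = 0.681, background 0% in each direction). At an unadjusted p under 0.05, 202 were higher (3.42%, against 3.36% of all flanks) and 299 lower (5.06%, against 3.88%). The median log2 difference was −0.061 against −0.030 over all flanks. Both cKO libraries lay above both WT libraries at 910 members (15.4%, against 16.0%) and below both at 1447 (24.5%, against 23.2%).

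The flanks with the smallest p came from a few genes, and none passed. Both named flanks in Slc39a11, a zinc transporter gene, belong to neighbouring regions and share covered bases. The first region (chromosome 11, 113418901 to 113419867) had 301 and 473 covered flank bases in WT replicates 1 and 2 and 3949 and 5103 in cKO replicates 1 and 2. A region of Tmem178b had 0 and 206 against 3608 and 5460 bases, 1 of Dst, a cytoskeletal linker gene, 687 and 0 against 3245 and 5368, and 1 of Sox5 918 and 183 against 5607 and 3959. All 5 of these were higher in both cKO libraries, with log2 differences from 1.87 to 2.53.

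In the other direction both named flanks of Glis3, a Krüppel-like zinc finger gene, belong to neighbouring regions (chromosome 19, 28374325 to 28375927 and 28380106 to 28383679). They had 6145 and 5723 bases in WT replicates 1 and 2 against 2843 and 966 in cKO replicates 1 and 2, and 5100 and 5000 against 2223 and 1004. Their log2 differences were −2.07 ± 0.43 and −1.99 ± 0.40 (SE; limma adjusted p = 0.681). A region of Thsd4 had 2404 and 2367 against 0 and 370 bases, so its flank passed the filter through the WT libraries. These 3 flanks were lower in both cKO libraries, as their choice required. Without WT replicate 1, 6 flanks were higher at a limma adjusted p under 0.05, in Dst, Fam189a1, Csmd1, Ephb1, Myt1l and Kcnq3, out of 55 calls over all 40262 flanks, and without any other single library none was.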

How the data were processed

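Each of the 4 ChIP libraries has its own list of broad peaks, so replicates were not pooled for calling; 4 matching inputs were not analysed here. The submitters' processing notes name the mm10 build and the tools FastQC, cutadapt, MACS2 2.1.1 and Bowtie2 2.2.8. How reads were filtered, which calling options were set and whether the inputs entered is not given in the sources used here. The authors deposited for each peak its coordinates, a score, a fold enrichment over background (a ratio) and −log10 p and −log10 q values, used here to rank, describe and select peaks inside 1 list only. The lists hold no reads, so depth is unknown, and a deeper or better enriched library gives more and wider peaks.

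Gene spans came from RefSeq on GRCm38.p6 (20665 coding genes with a unique symbol on chromosomes 1 to 19). Start sites and microRNAs came from its sequence tables. The locus fit drew on 21887 coding genes with a unique symbol, with chromosomes X and Y included. Peaks were merged and intersected in numpy 2.4.6 and pandas 2.3.3 (Python 3.11.15). The genotype fits used R 4.3.3 and limma 3.58.1 (trended eBayes, Benjamini-Hochberg adjustment over all loci or flanks fitted, threshold 0.05) on median-centred log2(bases + 500), with no block; such differences understate the change of thinly covered loci. Single values per library were compared with exact permutation tests. The interval code and both fits were tested on simulated data. Fold enrichment was turned into a percentile within its own list.

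Members, gene lists, tests and the comparison around start sites were chosen with earlier results of these data known. Genes were named by rule: the 10 with most regions, the 10 densest, the 10 longest, the 10 longest without a region, 5 loci and 5 flanks per direction with the smallest p and no overlap between genotypes, the 3 with most and 1 with fewest regions of each list, and Prdm16. Genes with single regions, with long intervals or with many strong regions were named after their values were seen. Some genes that these rules name are not reported here. Alternatives were stricter peaks, lists of equal number or length, other pseudocounts, filters, scalings, flanks and length limits, and leaving out each library.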

Additional observations from a re-analysis of the deposited data

How the results depend on the processing

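The number of regions in long genes was 8155. It was 4781 where all lists had equal covered length, 4138 in genes of at least 500 kb, and 8332 to 9081 with 1 library left out. The difference in the share of covered bases turned to 0.000788 percentage points in genes of at least 500 kb, and ranged from −0.351 to 0.0621 with 1 library left out, with the positive value without cKO replicate 2. With 1 library left out, 0 to 6 long loci and 0 to 6 flanks were called higher by limma and 0 lower; the lone library of a genotype is then assumed to vary like the others. Calls at an unadjusted p under 0.05 ranged from 22 to 223 higher and 1 to 63 lower over loci, and from 18 to 750 higher and 20 to 656 lower over flanks. Of 294 values of named loci and flanks under the alternatives, 8 changed sign: with equal covered length Chrm3 (−0.57), Gse1 (0.050), Msi2 (0.061) and Prdm16 (0.16), and without centring Gse1 (0.12), Msi2 (0.16), Thsd4 (0.046) and Prdm16 (0.25); the cause was not tested. Same-numbered libraries deviated with a correlation of −0.096 over loci and −0.065 over flanks. With 2 libraries per genotype the crossed correlation is the same value with the opposite sign. These values therefore cannot decide whether the numbers pair the libraries. A fit with the replicate block called 0 loci, 0 flanks higher and 2 flanks lower, both of Glis3 (limma adjusted p = 0.00185 and 0.00721), out of 12 calls over all flanks, and changed no other call among the long genes. The rank of regions near a start site stayed negative under the alternatives tried, chosen after seeing the data (−6.88 to −10.2), as did that of long against shorter genes (−0.807 to −3.11). The unknown depth and 2 libraries per genotype limit what can be seen.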
